A study of Mus musculus with 16 samples.

Results

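The 9 genes described here are Gadd45a, Gadd45b and Gadd45g, the growth arrest and DNA damage genes of the Gadd45 family, and Cdkn1a, Mdm2, Trp53inp1, Ccng1, Phlda3 and Sesn1, genes that the p53 protein is known to switch on. They were chosen by name from the 39179 genes of the count table, each name matched 1 row, and all 9 passed the filter on low counts that left 15021 genes. The RNA was from B cells of the spleen of NOD.LT mice, a line of a strain prone to autoimmune diabetes, at 15 weeks of age and after 5 weeks on a diet. Each of 4 diets had 4 libraries. HAMS is a diet with high-amylose maize starch, which resists digestion and is fermented in the colon, and in the field's usage HAMSA and HAMSB carry the same starch with acetate or butyrate attached. The remaining diet is labelled NP, while the feeding protocol lists a diet called Gordons in its place. The labels give neither the sex of the mice nor any treatment other than diet, and the B cells were those left after columns had taken the other spleen cells away. The question posed by the diets was whether resistant starch, alone or carrying acetate or butyrate, went with other transcript levels of these stress genes.

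The p53 protein is a transcription factor that is stabilised by DNA damage and other stress and then raises genes for arrest of the cell cycle, repair and cell death. Among these genes Cdkn1a encodes p21, an inhibitor of cyclin-dependent kinases, and Mdm2 encodes the ubiquitin ligase that marks p53 for breakdown and so closes a feedback loop. The Gadd45 proteins are small acidic proteins that bind the kinase Map3k4, upstream of p38 and JNK, as well as PCNA and the Cdk1 complex. In B cells, Gadd45b is an NF-kB target induced by CD40 signals, and p53 signalling limits the survival of cells with broken antigen receptor loci. Several of these genes also answer to factors other than p53, such as the Atf4 and CHOP proteins for Gadd45a and the FoxO factors for Gadd45a, Cdkn1a and Sesn1.

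The counted reads came to between 31707731 and 46206200 per library in NP, HAMS and HAMSB and to between 15053965 and 30723337 in HAMSA. The series text gives 4 per diet and also speaks of triplicates, and the labels do not say which animal or culture a library came from, so the p-values measure the spread between these libraries, which may be technical. Library numbers are those of the labels. Among numbers 5 and 6, NP had library 5 alone and HAMSA library 6 alone, while HAMS and HAMSB had both. Values within 5 and 6 that involve NP or HAMSA thus rest on that library for the diet. The 9 B cell markers used, which include Ms4a1 and Cd79a, summed to between 10140 and 13470 CPM, a gene's reads scaled to a common library total, in every library, and none of them was at 0. The 10 macrophage markers summed to 145 to 289 CPM in NP, 44.0 to 85.6 in HAMS, 89.5 to 131 in HAMSA and 50.7 to 113 in HAMSB. The 12 erythroid markers summed to 88.5 to 1505 CPM in NP, 40.2 to 123 in HAMS, 554 to 6454 in HAMSA and 53.4 to 1544 in HAMSB. The 10 T cell markers summed to 168 to 412 CPM over the 16 libraries. No macrophage or T cell marker was at 0 in any library. In such bulk samples fewer cells of a type and less RNA per cell cannot be told apart.

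The upstream sequences of 5 of the genes are shown because these genes hold a match to the p53 decamer, the 10-base unit that p53 binds in pairs, within 250 bases before a RefSeq start. RefSeq entries (GRCm38.p6) were found for 8 of the 9 genes, with 10 starts, and Trp53inp1 had no entry. Each sequence is printed 5′ to 3′ on the strand of its gene, without bases that belong to its exons, and capitals mark the decamer letters and the ACATGT core. The windows are chr17:29090729-29090975 on the plus strand for the first start of Cdkn1a, chr10:41887189-41887438 on the plus strand for the second start of Sesn1, chr6:67037458-67037657 on the minus strand for Gadd45a, chr10:117710759-117711008 on the minus strand for Mdm2 and chr11:40755312-40755536 on the minus strand for Ccng1.
Cdkn1a: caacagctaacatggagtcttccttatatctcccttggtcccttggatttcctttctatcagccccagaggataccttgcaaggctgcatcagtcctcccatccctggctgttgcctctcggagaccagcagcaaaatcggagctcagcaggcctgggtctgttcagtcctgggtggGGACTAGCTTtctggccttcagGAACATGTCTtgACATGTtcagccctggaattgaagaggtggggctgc
Sesn1: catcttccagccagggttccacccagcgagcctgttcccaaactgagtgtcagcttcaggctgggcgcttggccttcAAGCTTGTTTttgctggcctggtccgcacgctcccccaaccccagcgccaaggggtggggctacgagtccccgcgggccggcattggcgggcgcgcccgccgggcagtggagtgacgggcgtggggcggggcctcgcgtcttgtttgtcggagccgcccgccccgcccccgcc
Gadd45a: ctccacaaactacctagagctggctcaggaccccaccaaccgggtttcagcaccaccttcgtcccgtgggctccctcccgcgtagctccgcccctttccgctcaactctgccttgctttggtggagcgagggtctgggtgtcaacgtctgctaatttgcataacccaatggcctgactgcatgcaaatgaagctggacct
Mdm2: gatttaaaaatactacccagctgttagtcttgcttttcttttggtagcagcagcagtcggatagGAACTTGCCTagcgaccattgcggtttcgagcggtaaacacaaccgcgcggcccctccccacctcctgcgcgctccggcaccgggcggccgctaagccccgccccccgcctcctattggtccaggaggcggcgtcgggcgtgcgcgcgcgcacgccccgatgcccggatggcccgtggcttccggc
Ccng1: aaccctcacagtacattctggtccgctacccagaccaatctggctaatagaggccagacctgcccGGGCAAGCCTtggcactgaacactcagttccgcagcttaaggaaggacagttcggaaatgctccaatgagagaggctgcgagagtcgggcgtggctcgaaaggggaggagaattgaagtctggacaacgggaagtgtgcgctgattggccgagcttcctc
The decamer match of Cdkn1a starts 51 bases before its first start, with a further match 73 bases before it. The window of the second Cdkn1a start, chr17:29093519-29093768, held no match to the decamer or the core. The match of Sesn1 starts 173 bases before its second start. In Gadd45a the match starts 40 bases before the RefSeq start and falls in bases that another transcript counts as exon, so it is not in the printed run. With both strands searched, 5 of the 10 windows of these genes held a decamer, against 7.13% of the 32851 windows in the table. The ACATGT core was found in 1 of the 10 windows, that of the first start of Cdkn1a, and in 4.58% of all windows. Cdkn1a held it at 2 places, and 0.247% of all windows held it at 2 or more. The match 49 bases before the start lies inside the decamer match at 51, and the match 39 bases before the start lies outside the decamer matches. A cyclic AMP element (TGACGTCA), a heat shock element (GAANNTTC), an AP-1 site (TGANTCA) and the NF-kB motif were matched in 0 of the 10 windows, against 1.55%, 6.69%, 6.75% and 3.9% of all windows. The FoxO motif GTAAACA was matched in Mdm2 only among these windows, against 3.17% of all. The letters CCAAT stood in 7 of the 10 windows and in 33.8% of all. These matches describe letters only, and known p53 sites of Mdm2 and Gadd45a lie in introns outside these windows.

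All 9 genes are protein-coding. On GRCm38 with GENCODE M21 they lie at chr6:67035096-67037457 (Gadd45a, minus strand), chr10:80930073-80932204 (Gadd45b, plus), chr13:51846678-51848468 (Gadd45g, plus), chr17:29090976-29100727 (Cdkn1a, plus), chr10:117688875-117710758 (Mdm2, minus), chr4:11156431-11174379 (Trp53inp1, plus), chr11:40748552-40755311 (Ccng1, minus), chr1:135766119-135769136 (Phlda3, plus) and chr10:41809935-41908424 (Sesn1, plus). None shares exon bases with a gene on its own strand. Gadd45a and Cdkn1a overlap an exon of a gene on the other strand, E230016M11Rik and AC167363.2, and the deposited table was counted by strand.

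Per kilobase of exon, Sesn1 was the most abundant of the 9 genes and Phlda3 the least. The mean over the 16 libraries was 73.0 CPM per kilobase for Sesn1, an inhibitor of mTORC1 signalling. Ccng1, which encodes cyclin G1, followed with 26.9, Trp53inp1 with 24.6, Gadd45b with 20.1 and Mdm2 with 19.98 CPM per kilobase. Gadd45g reached 15.0 and Gadd45a 10.4, while Cdkn1a stood at 2.36 and Phlda3 at 0.619 CPM per kilobase. The ranges over the libraries of Ccng1 (20.6 to 34.1), Trp53inp1 (14.3 to 35.6), Gadd45b (11.7 to 28.4) and Mdm2 (17.7 to 23.7) overlapped. Within libraries, Ccng1 lay above Trp53inp1 in 10 of 16, Trp53inp1 above Gadd45b in 12 and Gadd45b above Mdm2 in 8, so the order of these neighbours was not the same in all libraries, whereas Ccng1 lay above Mdm2 in 16 of 16. The ranges of Gadd45g (8.67 to 18.6) and Gadd45a (6.98 to 15.3) also overlapped, and those of Sesn1 (50.2 to 104), Cdkn1a (1.53 to 3.97) and Phlda3 (0.284 to 1.06) lay apart from all others.

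Of the 9 genes, Gadd45a, Cdkn1a and Sesn1 were lower in HAMSB than in HAMS, and Gadd45a and Cdkn1a were higher in HAMS than in NP. Gadd45a was also higher in HAMSA than in HAMSB. Gadd45b, Gadd45g, Mdm2, Trp53inp1, Ccng1 and Phlda3 passed the test in none of the 6 comparisons of diets. A call means an adjusted p under 0.05 over all genes of a comparison. In HAMSB against HAMS 3 of 9 genes were called, all lower, where 1.68% of all genes were called and 1.24% were called lower. In HAMS against NP 2 of 9 were called, both higher, where 4.33% of all genes were called and 2.27% called higher. In HAMSA against HAMSB 1 of 9 was called, as higher, where 0.779% of all genes were called and 0.586% called higher. A test for any difference among the 4 diets called Gadd45a (adjusted p = 0.00159) and Cdkn1a (adjusted p = 0.020), where 3.78% of all genes were called, and gave an adjusted p of 0.0779 for Sesn1.

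The other 3 comparisons called none of the 9 genes with edgeR. In HAMSA against HAMS 0% of all genes were called, and 2 of the 9 (Gadd45a and Sesn1) and 11.7% of all genes had an unadjusted p under 0.05. DESeq2 called 1 of the 9 and 0.686% of all genes there, and limma voom called 0 of the 9 and 0% of all genes. In HAMSA against NP 1.41% of all genes were called, and 1 of the 9 (Cdkn1a) and 25.1% of all genes had an unadjusted p under 0.05. In HAMSB against NP 0.0732% of all genes were called, and 2 of the 9 (Gadd45a and Sesn1) and 6.89% of all genes had an unadjusted p under 0.05. DESeq2 and limma voom called 0 of the 9 in both comparisons with NP. Of all genes DESeq2 called 8.63% in HAMSA against NP and 0.826% in HAMSB against NP, and limma voom 0.553% and 0.14%. The 6 comparisons share libraries, so the values of one are not independent of the next. The plot of levels by library shows the 9 genes side by side.

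**Figure D1:**
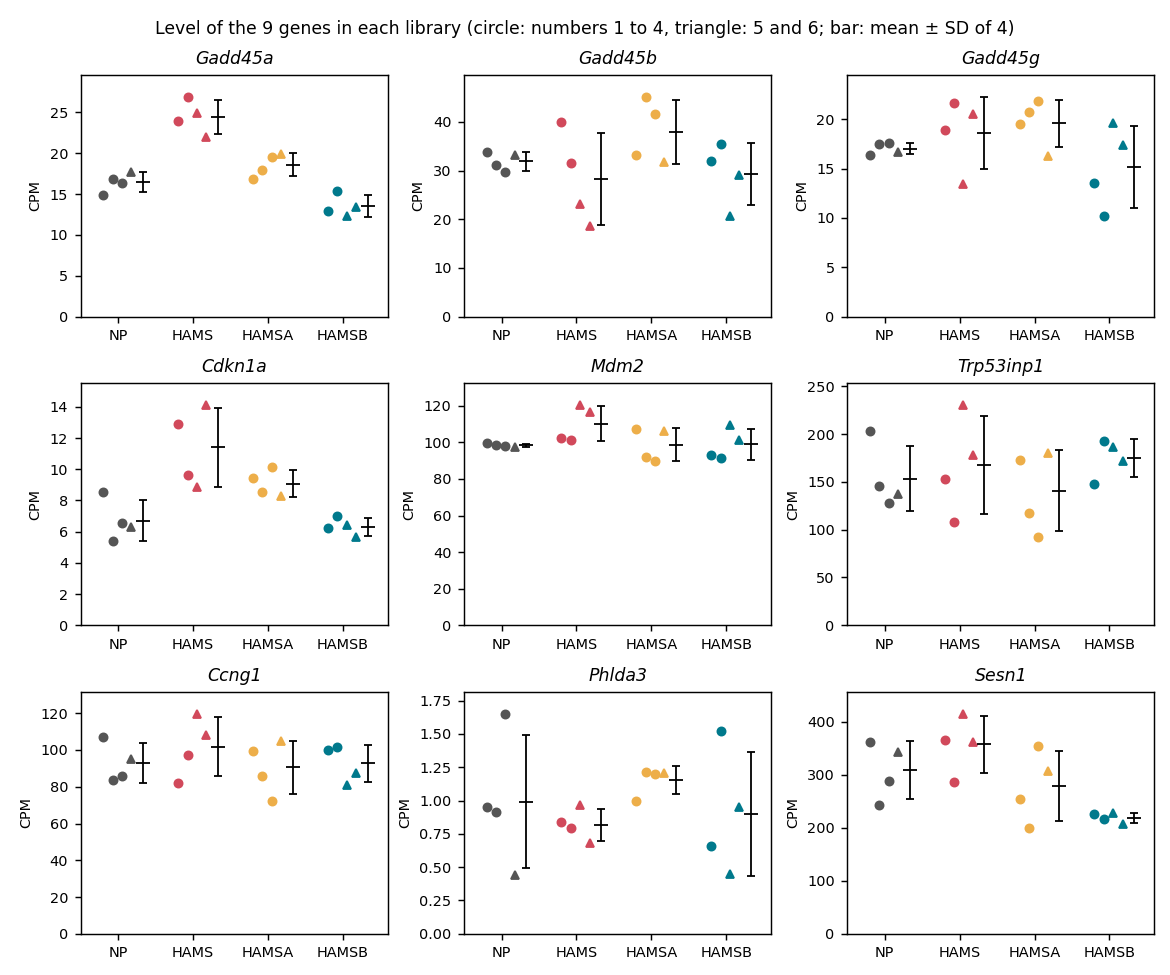
Level of each of the 9 genes in CPM (vertical axis, from 0) in the 4 libraries of each diet (horizontal axis). Points are libraries, circles for numbers 1 to 4 and triangles for 5 and 6, and the bar is the mean ± SD of 4. The HAMS libraries of Gadd45a, at 21.97 to 26.9 CPM, sit above those of every other diet, and the HAMSB libraries of Sesn1, at 206 to 228 CPM, sit below those of HAMS and NP.

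Gadd45a, whose protein slows the cell cycle and activates p38 through Map3k4, was highest in HAMS and lowest in HAMSB. Its level was 23.97, 26.9, 24.9 and 21.97 CPM in HAMS libraries 1, 4, 5 and 6, and 12.97, 15.4, 12.3 and 13.4 CPM in HAMSB libraries 1, 2, 5 and 6. NP libraries 1, 3, 4 and 5 gave 14.9, 16.8, 16.4 and 17.7 CPM, and HAMSA libraries 1, 2, 3 and 6 gave 16.9, 17.97, 19.6 and 19.9 CPM. Every HAMS library was thus above every library of the other diets, every HAMSA library was above every HAMSB library, and NP overlapped with HAMSA and with HAMSB. The means were 24.5 ± 2.07 CPM in HAMS, 18.6 ± 1.40 in HAMSA, 16.5 ± 1.21 in NP and 13.5 ± 1.34 in HAMSB (SD, n = 4 each).

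The level of Gadd45a in HAMSB was 1.81-fold lower than in HAMS, a log2 fold change of -0.85 ± 0.10 (SE, adjusted p = 0.000485). It was the gene with the 9th smallest p of the 15021 tested. In HAMS it was 1.49-fold higher than in NP, with a log2 fold change of 0.57 ± 0.10 (adjusted p = 0.00562). Against HAMSB it was 1.37-fold higher in HAMSA, with a log2 fold change of 0.46 ± 0.10 (adjusted p = 0.0499), which lies just under the threshold. In HAMSA against HAMS the log2 fold change was -0.40 ± 0.10 with an adjusted p of 0.300 by edgeR and 0.0232 by DESeq2, although the libraries did not overlap. The change from NP was 0.17 ± 0.10 in HAMSA (adjusted p = 0.288) and -0.28 ± 0.10 in HAMSB (adjusted p = 0.473) on the log2 scale.

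Gadd45b, the NF-kB and TGF-beta responsive member of the family, varied more between libraries of a diet than between diets. It was at 39.9, 31.5, 23.2 and 18.6 CPM in HAMS, at 32.1, 35.5, 20.7 and 29.2 in HAMSB, at 33.1, 45.2, 41.6 and 31.7 in HAMSA and at 33.7, 31.1, 29.6 and 33.2 in NP, with libraries in the order given above. All diets overlapped. The largest difference in size, HAMSA against HAMS, was 0.42 ± 0.21 on the log2 scale (adjusted p = 0.438), with a 95% interval of -0.02 to 0.86. Libraries numbered 1 to 4 had a mean of 35.3 CPM (n = 10) and those numbered 5 and 6 a mean of 26.1 CPM (n = 6).

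Gadd45g, the cytokine-inducible member, was at 18.9, 21.7, 13.4 and 20.6 CPM in HAMS, 13.6, 10.2, 19.6 and 17.4 in HAMSB, 19.5, 20.7, 21.8 and 16.3 in HAMSA and 16.4, 17.5, 17.6 and 16.7 in NP. The diets again overlapped, and NP was the tightest with a mean of 17.03 ± 0.583 CPM (SD, n = 4). The log2 fold change in HAMSB against HAMS was -0.30 ± 0.18 (adjusted p = 0.492). It was -0.78 among libraries numbered 1 to 4 (adjusted p = 0.0717) and 0.12 among those numbered 5 and 6 (adjusted p = 0.838), so its sign differed between these sets.

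Cdkn1a, which encodes the Cdk inhibitor p21, was higher in HAMS than in NP and HAMSB. It was at 12.9, 9.67, 8.88 and 14.1 CPM in HAMS and at 6.21, 7.04, 6.40 and 5.65 CPM in HAMSB. NP gave 8.53, 5.43, 6.55 and 6.27 CPM and HAMSA 9.42, 8.55, 10.1 and 8.26 CPM. All HAMS libraries lay above all HAMSB and NP libraries, and all HAMSA libraries lay above all HAMSB libraries. HAMSA overlapped with HAMS and with NP. These levels rested on 130 to 479 reads per library.

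The level of Cdkn1a in HAMSB (6.32 ± 0.570 CPM) was 1.80-fold lower than in HAMS (11.4 ± 2.52 CPM; SD, n = 4 each), a log2 fold change of -0.85 ± 0.17 (adjusted p = 0.016). In HAMS it was 1.70-fold higher than in NP (6.70 ± 1.31 CPM), with a log2 fold change of 0.77 ± 0.17 (adjusted p = 0.0183). HAMSA (9.09 ± 0.844 CPM) differed from HAMSB by 0.52 ± 0.17 (adjusted p = 0.155), from NP by 0.44 ± 0.17 (adjusted p = 0.14) and from HAMS by -0.33 ± 0.17 (adjusted p = 0.450) on the log2 scale. HAMSB against NP gave -0.08 with a 95% interval of -0.44 to 0.28.

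Sesn1 encodes sestrin 1, which restrains mTORC1 through the GATOR complexes and AMPK, and was lower in HAMSB than in HAMS. Its level was 226, 215, 228 and 206 CPM in HAMSB and 366, 286, 415 and 362 CPM in HAMS. In NP it was 361, 242, 289 and 343 CPM, and in HAMSA 253, 199.9, 353 and 307 CPM. All HAMSB libraries lay below all HAMS and NP libraries but within the range of HAMSA, which was the widest. HAMSB was also the tightest, with an SD of 9.83 CPM around 219 CPM, against SDs of 53.4 to 66.3 CPM in the other diets.

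The level of Sesn1 in HAMSB was 1.63-fold lower than in HAMS, a log2 fold change of -0.71 ± 0.16 (adjusted p = 0.040). Against NP the log2 fold change in HAMSB was -0.50 ± 0.16 (adjusted p = 0.429), with libraries that did not overlap and a 95% interval of -0.84 to -0.15. HAMSA against HAMSB gave 0.35 ± 0.16 (adjusted p = 0.257) and HAMSA against HAMS -0.36 ± 0.16 (adjusted p = 0.419). HAMS against NP gave 0.21 with an interval of -0.14 to 0.56.

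Mdm2, the negative regulator of p53, had the smallest spread within diets of the 9 genes, 7.75% of its mean. It was at 99.4, 98.3, 98.2 and 97.3 CPM in NP and at 102.4, 101.4, 120.4 and 117 CPM in HAMS. HAMSA gave 107.1, 91.8, 90.1 and 106.4 CPM and HAMSB 93.3, 91.5, 109.5 and 101.1 CPM. All HAMS libraries were above all NP libraries, by 0.17 ± 0.09 on the log2 scale (adjusted p = 0.316), and the other pairs of diets overlapped. The 95% interval of HAMSB against HAMS ran from -0.34 to 0.03, which does not include the size of change seen in Gadd45a or Cdkn1a. With the reads outside exons as a covariate, HAMS against NP was called for Mdm2 with 0.22 (adjusted p = 0.042). It was 0.05 within library numbers 1 to 4 (adjusted p = 0.799) and 0.28 within 5 and 6, where NP had library 5 alone.

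Trp53inp1, whose protein takes part in autophagy and p53-dependent death, had a spread within diets of 24.3% of its mean, the largest after that of Phlda3. It was at 153, 107.9, 230.4 and 179 CPM in HAMS, 148, 193, 186 and 172 in HAMSB, 173, 117, 92.7 and 180.0 in HAMSA and 203, 146, 128 and 137 in NP. All diets overlapped, and the log2 fold change of HAMSB against HAMS was 0.06 with an interval of -0.42 to 0.55. Its mean was 146 CPM in libraries numbered 1 to 4 and 181 CPM in those numbered 5 and 6. The same split gave 97.4 and 108.6 CPM for Mdm2.

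Ccng1 encodes cyclin G1, which binds the phosphatase that activates Mdm2. It was at 81.9, 97.1, 119.8 and 108.4 CPM in HAMS, 100.2, 101.8, 81.1 and 87.6 in HAMSB, 99.4, 85.6, 72.5 and 104.7 in HAMSA and 107, 83.5, 85.9 and 95.4 in NP. The diets overlapped in every pair. No log2 fold change of Ccng1 exceeded 0.17 in size, and the interval for HAMSB against HAMS was -0.42 to 0.15.

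Phlda3, an inhibitor of Akt, was near the lower end of what was measured, with 16 to 66 reads per library. It was at 0.84, 0.79, 0.96 and 0.68 CPM in HAMS, 0.66, 1.52, 0.45 and 0.95 in HAMSB, 0.996, 1.21, 1.20 and 1.21 in HAMSA and 0.95, 0.91, 1.65 and 0.44 in NP. HAMSA lay above HAMS without overlap, by 0.49 ± 0.39 on the log2 scale (adjusted p = 0.570). The interval of HAMSB against HAMS ran from -0.67 to 0.94, the widest of the 9 genes. It did not reach the -0.85 of Cdkn1a but overlapped the interval of Cdkn1a, -1.21 to -0.49.

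**Figure D2:**
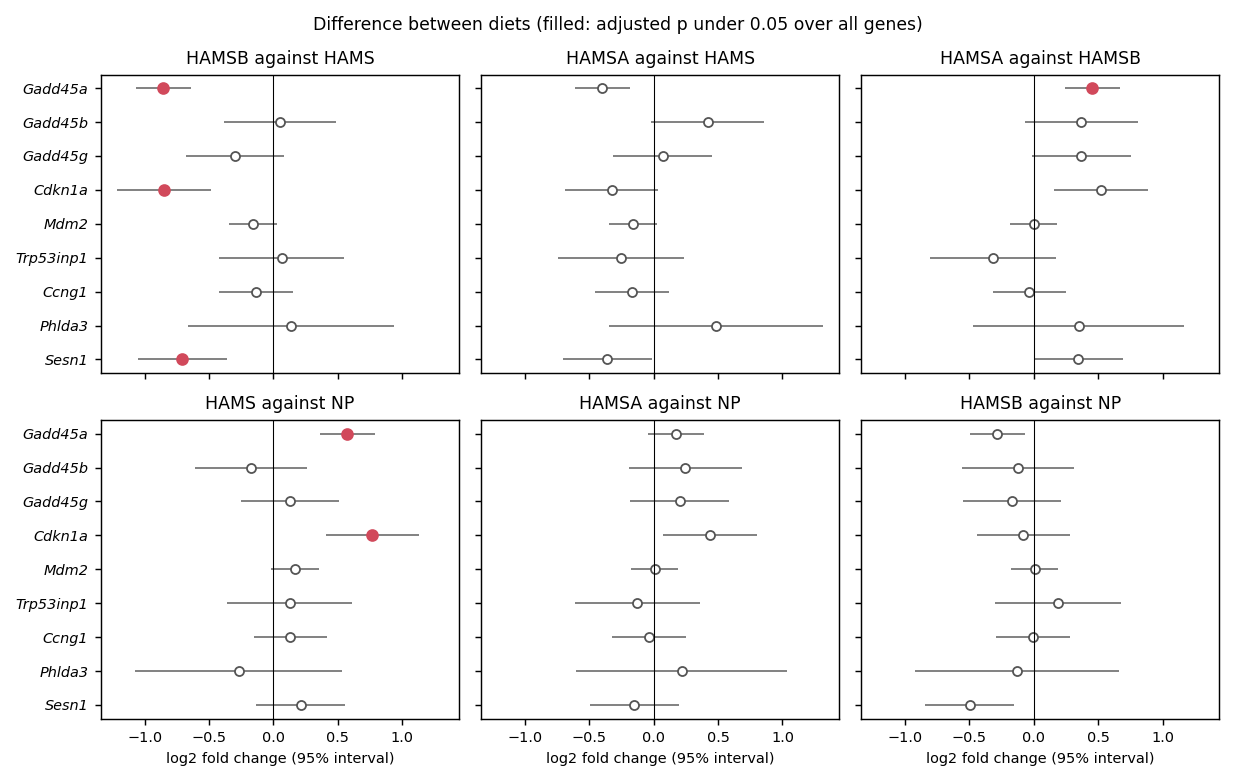
Log2 fold change (horizontal axis) of the 9 genes in the 6 comparisons of diets, with the 95% interval of the fit as a line. Filled points have an adjusted p under 0.05. Gadd45a, Cdkn1a and Sesn1 are filled to the left of 0 in HAMSB against HAMS, Gadd45a and Cdkn1a to the right in HAMS against NP, and Gadd45a to the right in HAMSA against HAMSB.

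Libraries without overlap between 2 diets were found for 3 of the 9 genes in HAMSB against HAMS, all lower (4.11% of all genes were lower in this way), 2 in HAMSA against HAMS in opposite directions (4.01% in either direction), 2 in HAMSA against HAMSB, both higher (4.65%), 3 in HAMS against NP, all higher (6.06%), 0 in HAMSA against NP (16.4% in either direction) and 1 in HAMSB against NP, lower (3.06%). The median log2 fold change of the 9 genes was -0.16 in HAMSB against HAMS, where that of all genes was 0.01, and 0.13 in HAMS against NP, where that of all genes was 0.01. In HAMSA against HAMSB it was 0.35, against a median of -0.004 over all genes. There 7 of the 9 and 49.5% of all genes lay above 0. The 7 include Mdm2, whose log2 fold change rounded to 0 (98.84 CPM in HAMSA and 98.87 in HAMSB).

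Of the 6 called differences, those of Gadd45a in HAMSB against HAMS and in HAMS against NP were kept whichever single library was left out. Their log2 fold changes then ranged from -0.92 to -0.80 and from 0.51 to 0.62. Among libraries numbered 1 to 4 they were -0.85 (adjusted p = 0.0392) and 0.67 (adjusted p = 0.0231). Among those numbered 5 and 6 they were -0.87 (adjusted p = 0.0573) and 0.39, the latter against NP 5 alone. The fall of Cdkn1a in HAMSB against HAMS was called in 5 of 8 omissions. It missed the threshold without HAMS 6 (-0.73, adjusted p = 0.0636), without HAMSB 1 (-0.84, adjusted p = 0.0552) and without HAMSB 6 (-0.80, adjusted p = 0.0669), and gave -0.78 (adjusted p = 0.170) and -0.93 (adjusted p = 0.21) within the lower and the upper library numbers. Its rise in HAMS against NP was called in 4 of 8 omissions and missed the threshold without NP 3 (0.68), NP 4 (0.76), NP 5 (0.73) or HAMS 6 (0.65). The highest adjusted p among these was 0.0824. The values within the lower and upper numbers were 0.73 (adjusted p = 0.0609) and 0.87, the latter against NP 5 alone.

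The call of Sesn1 in HAMSB against HAMS rested on all libraries but 1. It was kept without HAMS 4 (-0.80, adjusted p = 0.035) and missed the threshold in the other 7 omissions, without HAMS 1, 5 or 6 or any HAMSB library, with log2 fold changes of -0.73 to -0.63 and adjusted p up to 0.114. With plain library totals it was -0.63 (adjusted p = 0.0638), and within the lower and upper library numbers -0.57 (adjusted p = 0.329) and -0.84 (adjusted p = 0.0573). Gadd45a in HAMSA against HAMSB was called in 1 of 8 omissions, without HAMSB 2 (0.52, adjusted p = 0.0453). The other omissions, of any HAMSA library or of HAMSB 1, 5 or 6, gave 0.41 to 0.50 with adjusted p up to 0.175.

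**Figure D3:**
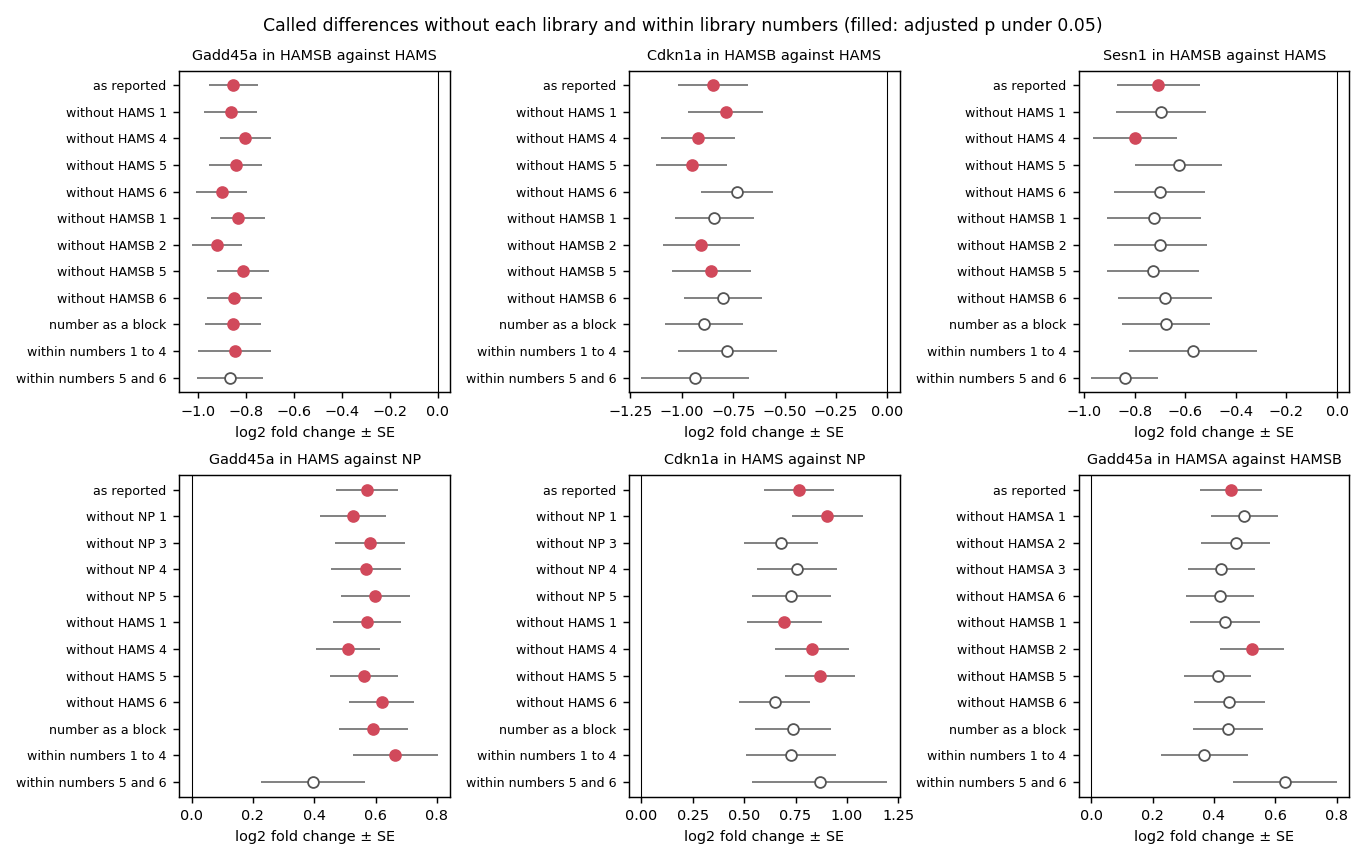
Log2 fold change ± SE (horizontal axis) of the 6 called differences as reported, without each library in turn, with the library number as a block and within library numbers 1 to 4 or 5 and 6. Within 5 and 6, NP is library 5 alone and HAMSA library 6 alone. Filled points have an adjusted p under 0.05. All points lie on the same side of 0, and the 8 omissions are filled throughout for Gadd45a in HAMSB against HAMS and in HAMS against NP but in 1 of 8 for Sesn1.

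Other p53 target genes did not move as 1 group. Of 36 measured, 4 were called in HAMSB against HAMS, 1 higher and 3 lower, where 1.68% of all genes were called. The median log2 fold change of the list was -0.0046. Plk3, a stress-activated Polo-like kinase, was lower (-0.58 ± 0.10, adjusted p = 0.00646), and so were the repair nuclease gene Ercc5 (-0.48 ± 0.11, adjusted p = 0.0276) and Btg2, an antiproliferative gene (-0.41 ± 0.10, adjusted p = 0.04998). Pml, which organises nuclear bodies, was higher (0.59 ± 0.11, adjusted p = 0.00789). Within library numbers 1 to 4 none of the 4 was called and within 5 and 6 the list held 1 call, which was none of these 4. Plk3 was -0.67 (adjusted p = 0.0627) and -0.51 (adjusted p = 0.207) and Pml 0.37 (adjusted p = 0.293) and 0.80 (adjusted p = 0.059) in these sets. The calls of Plk3 and Pml were kept in 8 of 8 omissions and those of Ercc5 and Btg2 in 2 of 8 each. Ercc5 was lost without HAMS 4, 5 or 6 or HAMSB 1, 2 or 6 (adjusted p up to 0.09995), and Btg2 without HAMS 1, 4 or 6 or HAMSB 1, 5 or 6 (up to 0.168).

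In HAMS against NP 5 of the 36 were called, 4 higher and 1 lower, where 4.33% of all genes were called. Btg2 (0.73 ± 0.10), Plk3 (0.44 ± 0.10), Ercc5 (0.44 ± 0.11) and Tob1, another antiproliferative gene (0.51 ± 0.14), were higher, and Pml (-0.48 ± 0.11) was lower. The call of Btg2 was kept in 8 of 8 omissions. Plk3 was lost without NP 1, 3 or 4 or HAMS 4 or 6, Pml without NP 3 or 4 or HAMS 6, Ercc5 in all omissions but that of HAMS 1, and Tob1 in all 8, so that without NP 3 the list held 1 call. In HAMSA against NP 1 was called, Btg2 (0.46 ± 0.10, adjusted p = 0.0395), a call kept only without HAMSA 6, where 1.41% of all genes were called. In HAMSA against HAMSB 1 was called, Pml (-0.49 ± 0.11, adjusted p = 0.0439), where 0.779% of all genes were called. The call of Pml was made in none of 8 omissions. In HAMSA against HAMS edgeR, DESeq2 and limma voom called 0. By edgeR 8 of the 36 and 11.7% of all genes had an unadjusted p under 0.05 there, led in the list by the apoptosis gene Bbc3 (0.82 ± 0.23, adjusted p = 0.300). In HAMSB against NP the 3 methods called 0, and by edgeR 1 of the 36 and 6.89% of all genes had an unadjusted p under 0.05. Sesn2, the relative of Sesn1, was at 15.9 ± 3.50 CPM in HAMSB and 20.9 ± 2.28 CPM in HAMS (SD, n = 4 each; -0.39 ± 0.15, adjusted p = 0.232), and the death gene Bax gave -0.13 ± 0.17 (adjusted p = 0.782).

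Trp53 itself, which encodes p53, was at 188 ± 10.8 CPM in HAMS, 208 ± 5.40 in HAMSB, 188 ± 10.7 in HAMSA and 205 ± 24.9 in NP (SD, n = 4 each). The HAMSB libraries lay above those of HAMS and HAMSA, by 0.15 ± 0.09 on the log2 scale in each case, and neither difference passed the test (adjusted p = 0.490 against HAMS). Of 15 measured genes for p53, its kinases, ligases and cofactors, edgeR called 0 in every comparison, as did DESeq2 and limma voom, with at most 5 at an unadjusted p under 0.05, in HAMSA against HAMSB, where 19.4% of all genes were under it. The gene with the smallest p there was Trp53bp1 (-0.39 ± 0.14, adjusted p = 0.188). Of 13 genes for partners of the Gadd45 proteins 0 were called by edgeR or limma voom in any comparison. DESeq2 called 2 of them in HAMSA against NP, where it called 8.63% of all genes. By edgeR 6 of the 13 and 25.1% of all genes had an unadjusted p under 0.05 there, led in the list by the sliding clamp gene Pcna (0.34 ± 0.11, adjusted p = 0.0863). Within library numbers 1 to 4, HAMSA against NP called 5 of the 15 and 4 of the 13, where 17.6% of all genes were called.

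In the cell cycle list around Cdkn1a, 1 of 21 genes was called by edgeR, in HAMS against NP, where 4.33% of all genes were called. Ccnd2, the main D-type cyclin of B cells, was higher in HAMS than in NP (1.08 ± 0.23, adjusted p = 0.0154). Its call was lost without NP 3, NP 4, NP 5 or HAMS 6, with adjusted p up to 0.0619. In HAMSA against NP edgeR called 0 of the 21 (median 0.30), where it called 1.41% of all genes. DESeq2 called 3 there, where it called 8.63% of all genes. Within library numbers 1 to 4 the count was 8, where 17.6% of all genes were called. In the sestrin and mTORC1 list of 18 genes, Ddit4, which encodes another inhibitor of mTORC1, was lower in HAMSB than in HAMS (-2.25 ± 0.25, adjusted p = 0.000312), with means of 56.9 ± 11.7 and 270.1 ± 11.8 CPM (SD, n = 4 each). This call was kept in 8 of 8 omissions and 11 of 11 other settings. Ddit4 was also higher in HAMSA than in HAMSB (1.23 ± 0.24, adjusted p = 0.0268; lost without HAMSA 3 or HAMSB 1, 5 or 6, with adjusted p up to 0.109) and lower in HAMSB than in NP (-1.48 ± 0.24, adjusted p = 0.039; kept only without NP 3 or HAMSB 1, otherwise up to 0.129). Nprl3, of the GATOR1 complex, was lower in HAMS than in NP (-0.46 ± 0.10, adjusted p = 0.0175; lost without NP 3 or 4 or HAMS 4 or 6, up to 0.0704). Sesn3 gave -0.01 ± 0.25 in HAMSB against HAMS.

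Of 12 FoxO factors and targets, 2 were called in HAMSB against HAMS, both lower, where 1.24% of all genes were called lower. They were the death gene Bcl2l11 (-0.90 ± 0.18, adjusted p = 0.017; lost without HAMS 5 or 6 or HAMSB 1, 2 or 6, with adjusted p up to 0.0605) and Pik3ip1, an inhibitor of PI3K (-0.89 ± 0.21, adjusted p = 0.0447; kept only without HAMS 4, otherwise up to 0.133). Bcl2l11 was higher in HAMS than in NP (0.86 ± 0.18, adjusted p = 0.0147; lost without NP 3 or 4 or HAMS 6, up to 0.0658), and Klf2, a quiescence factor, was higher in HAMSA than in NP (0.70 ± 0.15, adjusted p = 0.0381; kept only without NP 1 or HAMSA 6, otherwise up to 0.14). Of 10 NF-kB feedback targets, Cd83 alone was called in these comparisons. The share of all genes called was 1.68% in HAMSB against HAMS and 4.33% in HAMS against NP. Cd83 was lower in HAMSB than in HAMS (-0.81 ± 0.17, adjusted p = 0.0225; lost without HAMS 4 or 6 or HAMSB 1, 2 or 6, up to 0.0993) and higher in HAMS than in NP (0.96 ± 0.17, adjusted p = 0.00621; kept in 8 of 8 omissions).

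**Figure D4:**
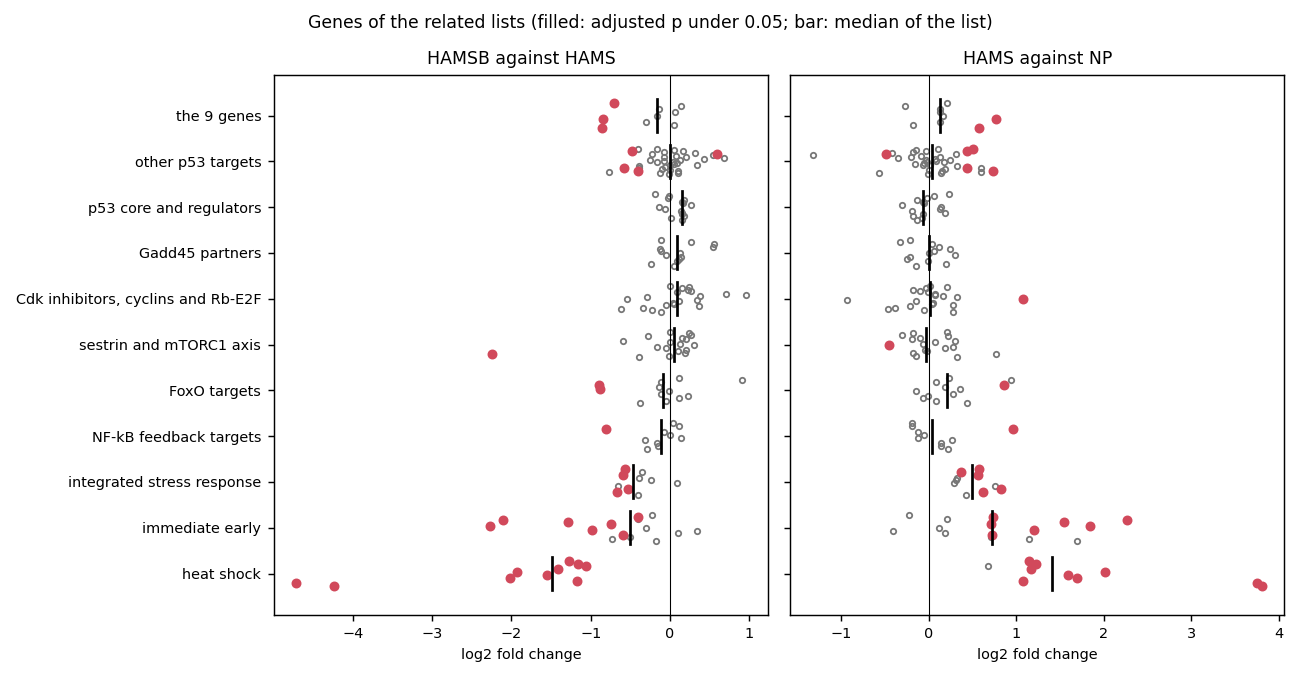
Log2 fold change (horizontal axis) of each measured gene of the related lists in HAMSB against HAMS and in HAMS against NP. Filled points have an adjusted p under 0.05 and the bar is the median of the list. The 10 heat shock genes lie left of 0 in the first panel and right of 0 in the second, while p53 core genes and Gadd45 partners hold no filled point.

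Lists of other stress responses moved in the same comparisons as Gadd45a and Cdkn1a. These lists were chosen with earlier results of these data known, so their counts of called genes are a description and no test. All 10 heat shock genes were called lower in HAMSB than in HAMS. The median log2 fold change was -1.48, and 1.24% of all genes were called lower. In HAMS against NP all 10 lay above 0 and 9 were called higher, with a median of 1.41. There 2.27% of all genes were called higher. Dnaja1, a co-chaperone, fell by 1.93 ± 0.31 on the log2 scale in HAMSB against HAMS (adjusted p = 0.00447). Hspd1, the mitochondrial chaperonin, was higher in HAMS than in NP by 1.23 ± 0.19 (adjusted p = 0.00221). The count of called heat shock genes fell to 4 without HAMS 4 in the first comparison and to 4 without NP 3 in the second, and to 2 within library numbers 1 to 4 in the first. In HAMSA against NP 1 was called, Hspd1 (0.80 ± 0.19, adjusted p = 0.0485; kept only without HAMSA 3, otherwise up to 0.169), where 1.41% of all genes were called. In HAMSA against HAMSB edgeR and limma voom called 0, and DESeq2 called 7, where it called 5.08% of all genes. All 10 had an unadjusted p under 0.05, as did 19.4% of all genes.

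Of 15 immediate early genes, 7 were called lower in HAMSB than in HAMS (13 below 0, median -0.51). In HAMS against NP 7 were called higher (13 above 0, median 0.72). In HAMSA 5 were called higher than in HAMSB (15 above 0, median 0.62) and 7 higher than in NP (13 above 0, median 0.65). Of all genes 1.24% were called lower in HAMSB against HAMS, and 2.27% and 0.586% higher in HAMS against NP and HAMSA against HAMSB. In HAMSA against NP 1.41% were called in either direction. Dusp1, a phosphatase of p38 and JNK, was at 11.03 ± 1.81 CPM in HAMSB and 53.04 ± 10.7 CPM in HAMS (-2.27 ± 0.25, adjusted p = 0.000312), and Ier2 fell by 0.98 ± 0.12 (adjusted p = 0.000485). Without NP 4 the count in HAMSA against NP was 0, and within library numbers 5 and 6 the count was 2 in HAMSB against HAMS. In HAMSA against HAMS edgeR and limma voom called 0, and DESeq2 called 4, where it called 0.686% of all genes. An unadjusted p under 0.05 was found for 9 of them and for 11.7% of all genes. The immediate early list includes Btg2, which is also among the p53 targets.

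Of 10 genes of the integrated stress response, a route to Gadd45a that does not need p53, 4 were called lower in HAMSB than in HAMS (median -0.47). In that comparison 9 of the 10 lay below 0, and 1.24% of all genes were called lower. In HAMS against NP 5 were called higher (median 0.50) and all 10 lay above 0, where 2.27% of all genes were called higher. Ddit3, which encodes CHOP, fell by 0.67 ± 0.11 in HAMSB against HAMS (adjusted p = 0.00602) and was higher in HAMS than in NP by 0.62 ± 0.11 (adjusted p = 0.00668). Herpud1, of the degradation pathway of the endoplasmic reticulum, fell by 0.60 ± 0.09 (adjusted p = 0.00278) and was higher by 0.57 ± 0.09 (adjusted p = 0.00268) in the same 2 comparisons. The counts were 2 without HAMS 4 and 3 without NP 3, and 0 in HAMSB against HAMS within library numbers 5 and 6. In HAMSA against HAMSB, where 0.779% of all genes were called, 1 was called, Herpud1 (0.46 ± 0.09, adjusted p = 0.0266), which was lost without HAMSA 2 or 3 or any HAMSB library (adjusted p up to 0.107). In HAMSA against NP, where 1.41% of all genes were called, 2 were called (Trib3, 0.64 ± 0.12, and Herpud1, 0.43 ± 0.09), and both were lost without NP 3, 4 or 5 or HAMSA 1 or 2.

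Set beside the 3 called genes, the summed level of the immediate early genes was 1348 to 1593 CPM in HAMS, 1357 to 1492 in HAMSA, 965 to 1002 in NP and 981 to 1035 in HAMSB. HAMS and HAMSA thus lay above NP and HAMSB without overlap. The heat shock genes summed to 1627 to 3162 CPM in HAMS, 918 to 2808 in HAMSA, 869 to 1166 in NP and 746 to 943 in HAMSB, and the integrated stress genes to 1680 to 1969, 1487 to 1768, 1196 to 1292 and 1125 to 1349 CPM. The part of these responses in the levels of Gadd45a, Cdkn1a and Sesn1 was not tested.

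**Figure D5:**
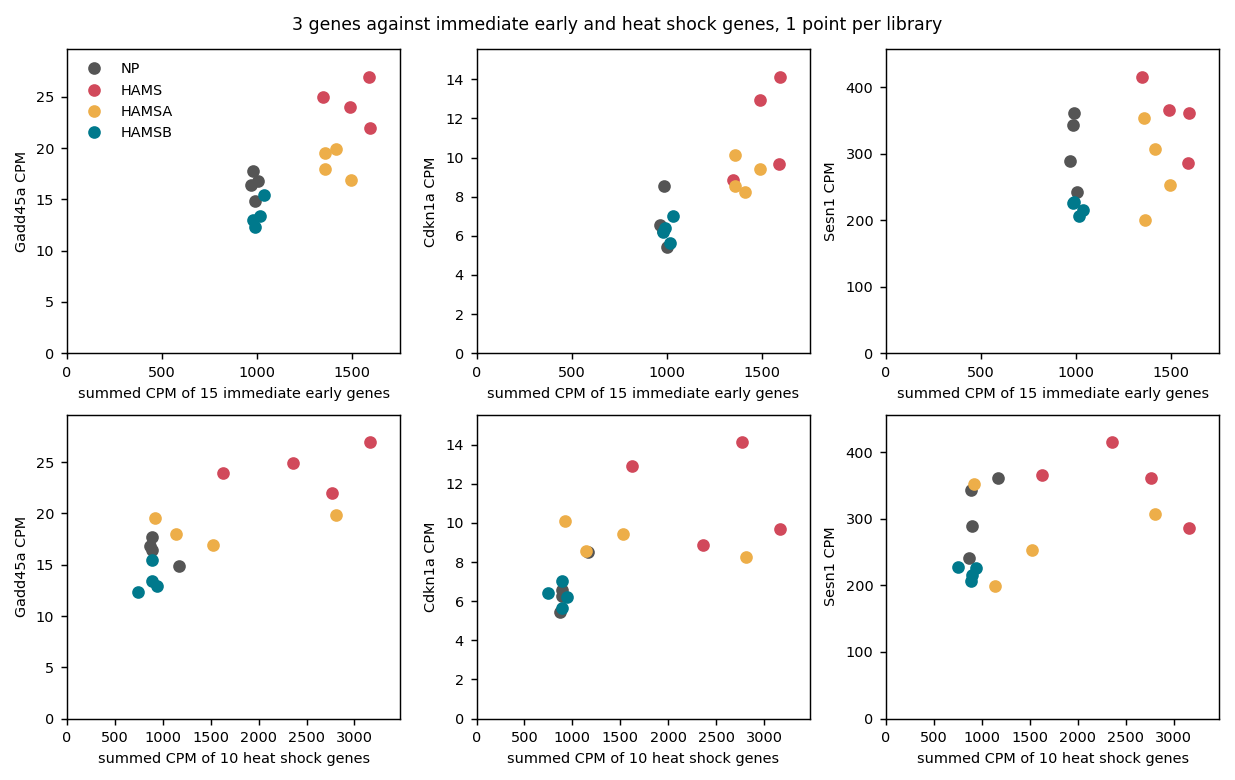
CPM of Gadd45a, Cdkn1a and Sesn1 (vertical axes, from 0) against the summed CPM of 15 immediate early genes (upper row) or 10 heat shock genes (lower row), 1 point per library, coloured by diet. HAMS and HAMSA libraries lie at 1348 CPM or above on the immediate early axis and NP and HAMSB at 1035 or below, and HAMSA lies below HAMS for Gadd45a at like immediate early sums.

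Markers of other cell types were set beside the comparisons in which Gadd45a, Cdkn1a or Sesn1 was called. In HAMS against NP 8 of the 10 macrophage markers were called lower, where 2.06% of all genes were called lower, with a median log2 fold change of -2.33, and the sums were those given above. Without NP 3 the count was 4. In the same comparison 1 of the 9 B cell markers was called lower, a call lost without NP 3, and 0 of the 10 T cell and 11 erythroid markers were called. All 11 erythroid markers lay below 0 (median -2.75), 7 of them at an unadjusted p under 0.05. Of the T cell markers 9 lay above 0 (median 1.29), with 2 of the 10 at an unadjusted p under 0.05. At most 23.65% of all genes were under it, the share up to the edgeR p of Mdm2 (0.0747). The part of these cells in the differences of Gadd45a and Cdkn1a was not tested. In HAMSB against HAMS 0 of the 10 macrophage, 9 B cell, 10 T cell and 11 measured erythroid markers were called by edgeR or limma voom, with median log2 fold changes of 0.09, 0.06, 1.39 and 2.94. DESeq2 called 1, 1, 0 and 1 of them, where it called 4.27% of all genes. By edgeR 2, 2, 3 and 11 had an unadjusted p under 0.05. At most 19.9% of all genes were under it, the share up to the edgeR p of Mdm2 (0.0887). All 11 erythroid and 9 of the 10 T cell markers were above 0. In HAMSA against HAMSB edgeR called 0 of the macrophage, B cell, T cell and erythroid markers. All 11 erythroid markers lay above 0 there (median 1.11, 4 at an unadjusted p under 0.05), as did 8 of the 10 macrophage markers (median 0.70, 2 under it). Of all genes 19.4% were under it. The part of these cells was not tested.

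The 7 plasma cell markers summed to 1512 to 2039 CPM in HAMSA and 865 to 1491 in HAMSB, without overlap, and to 1160 to 1809 in HAMS and 1176 to 1477 in NP. The 7 platelet markers summed to 367 to 761 CPM in HAMS, 248 to 402 in NP, 306 to 525 in HAMSA and 219 to 488 in HAMSB. The 10 neutrophil markers summed to 72.3 to 300.1 CPM in HAMSA, 40.2 to 238 in HAMSB, 5.32 to 105 in HAMS and 8.21 to 60.2 in NP, the 8 NK cell markers to 12.2 to 68.2 CPM and the 8 dendritic cell markers to 49.1 to 131 CPM over all libraries. Of these 5 lists edgeR called none in HAMSB against HAMS and HAMSA against HAMSB and 1 plasma cell marker, Xbp1, in HAMS against NP (0.37 ± 0.09, adjusted p = 0.0364), which is also in the integrated stress list and was lost without NP 3. DESeq2 called 1 plasma cell and 1 NK cell marker in HAMSB against HAMS and 2 plasma cell markers in HAMSA against HAMSB, and limma voom 0 in both. Of all genes DESeq2 called 4.27% and 5.08% in these comparisons. At an unadjusted p under 0.05 were 2 plasma cell, 6 NK cell, 2 neutrophil, 2 dendritic cell and 5 platelet markers in HAMSB against HAMS and 4 plasma cell markers in HAMSA against HAMSB. Of all genes at most 19.9% were under it in the first comparison and 19.4% in the second. The part of these cells in the called differences was not tested.

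The share of reads outside annotated exons was 13.8% ± 2.25 in HAMS, 14.7% ± 1.93 in HAMSB, 14.8% ± 0.667 in NP and 11.3% ± 1.09 in HAMSA (SD, n = 4 each). With this share as a covariate the calls of the 3 genes in HAMSB against HAMS were kept, at -0.83 for Cdkn1a and -0.74 for Sesn1, and the call of Gadd45a in HAMSA against HAMSB was lost (adjusted p = 0.512).

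The genes whose levels ran most like those of each member over the 16 libraries, among 10202 genes with a mean log2 CPM of at least 1, are given as a description. The libraries share diets, and r is Pearson's correlation of log2 CPM. For Gadd45a they were Plaur, the urokinase receptor gene (r = 0.97, 0.88 after the diet means were removed), Jmjd6 (0.90 and 0.32) and Tsc22d3, a glucocorticoid-induced gene (0.90 and 0.28). For Cdkn1a they were Ppp2r2d (0.91 and 0.70), Eed (0.90 and 0.63) and Cox20 (0.88 and 0.59). For Sesn1 they were Zfp1 (0.92 and 0.92), Slc25a53 (0.90 and 0.88) and Sla (0.90 and 0.85). Of these 9 genes, Jmjd6 and Tsc22d3 lost most of r when diet means were removed.

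For the members without a called difference the likeness was also present after the diet means were removed, with r of 0.71 to 0.97 for the 18 genes named here. Gadd45b ran with Psap (r = 0.97, 0.96 within diets), Rilpl2 (0.95) and Cln6 (0.95), of which Psap and Cln6 belong to lysosome biology. Gadd45g ran with Dhx16 (0.89), Clptm1 (0.89) and Sart1 (0.87), and Mdm2 with Foxo1 (0.95, 0.93 within diets), Nmt2 (0.94) and Adam9 (0.94). Trp53inp1 ran with Tlr4 (0.95), Rabgap1l (0.94) and Ptbp3 (0.93), and Ccng1 with Pnrc2 (0.96), Tmem123 (0.94) and Psmd1 (0.92). Phlda3, with its few reads, had the lowest values, 0.83 with St7, 0.76 with Igkv1-132 and 0.74 with Igkv4-86.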

How the data were processed

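RNA sequencing covered 16 stranded libraries of spleen B cells, 4 per diet. Per the submitters' processing notes, STAR, featureCounts of Subread, edgeR and limma were used, and build, annotation and versions are "not given in the sources used here". What the authors deposited is the count of reads per gene and library for 39179 genes, unscaled and counted for reverse-stranded libraries, so reads on several places or overlapping genes are lost. The fit used edgeR 4.0.16 (R 4.3.3): expression filter with a minimum count of 10, TMM scaling, 1 mean per diet over all 16 libraries (12 residual degrees of freedom), quasi-likelihood F-tests and Benjamini-Hochberg adjustment over 15021 genes. The common biological coefficient of variation was 22.1%. CPM are TMM-scaled, log2 fold changes carry the SE of the fit, and intervals are 95%.

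Alternatives were DESeq2 1.42.0, limma 3.58.1 voom, other scalings and filters, only the compared diets, a block for the library number, subsets of library numbers, a covariate and each library left out. For the pathway genes they were added after the data were seen. The code was tested on simulated data. A further B cell marker is not reported here. The members and lists were chosen with earlier results of these data known. Named from each list were up to 4 called genes with the smallest p in each direction and comparison or, with none called, at most the one with the smallest p. Further genes (Trp53, Sesn2, Sesn3 and Bax) were named as close relatives after their values were seen. For likeness, 3 genes per member were taken by r on log2 CPM with a prior count of 2, without clone or model names and pseudogenes. Positions are from GENCODE M21 (GRCm38) and upstream sequences from RefSeq (GRCm38.p6), which may not match the authors' annotation.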

Additional observations from a re-analysis of the deposited data

Results flagged for a closer look

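Phlda3 in HAMSA library 1, at 0.996 CPM, lay apart from the other 3 HAMSA libraries, which lay within 1.20 to 1.21 CPM. The distance to the nearest of them took up 0.931 of the range of the 4 libraries, above Dixon's 95% limit. Of 36 sets of 4 libraries (9 genes in 4 diets) 1 was singled out in this way, where chance gives about 1 in 20, and the counts behind these HAMSA values were 18 to 31 reads.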

How the results depend on the processing

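Over 54 pairs of gene and comparison and 1026 values under other settings, 981 kept their side of the threshold, 43 were no longer called, 2 became called (Gadd45a in HAMSA against HAMS with DESeq2, -0.41, and Mdm2 in HAMS against NP with the covariate, 0.22) and 0 of the called values changed sign. Of 910 values called in neither fit, 81 had the other sign. The cause of these changes was not tested. Low counts limit Phlda3.

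Of the 9 genes, 3 were called in HAMSB against HAMS. This became 1 within library numbers 1 to 4, 0 within 5 and 6, 2 with library totals (Sesn1 lost), 2 with the compared diets alone (Cdkn1a lost, -0.85, adjusted p = 0.0912) and 1 to 3 with a library left out. In HAMSA against HAMS 0 became 1 with DESeq2 and stayed at 0 in all omissions. In HAMSA against HAMSB 1 became 0 with limma voom, library totals, no filter, library numbers 1 to 4, the covariate and the compared diets alone, and 0 to 1 in omissions. In HAMS against NP 2 became 1 within numbers 1 to 4, 1 with the compared diets alone, 3 with the covariate and 1 to 2 in omissions. In HAMSA and in HAMSB against NP 0 was found in every setting. For any difference among diets 2 became 1 to 3 in omissions, with 1 without NP 4, HAMS 1 or HAMS 6.

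The library numbers were also used as a replicate block. Over 15 pairs of libraries with the same number the correlation of deviations from the diet means ran from -0.25 to 0.49 (median 0.19, 8 pairs over 0.1), against a median of -0.06 over 81 pairs with other numbers. No label says what a number marks, and the main fit takes the libraries to share only a number. The first principal component of log2 CPM (31.1% of the variance) placed numbers 5 and 6 lowest within every diet. NP 5 was at -23.7, close to NP 4 at -20.1, and HAMSA 6 at 1.07. HAMS 5 and 6 were at -44.9 and -38.5 and HAMSB 5 and 6 at -42.5 and -32.1. HAMS and HAMSB had both numbers, NP only 5 and HAMSA only 6, so number and diet are not balanced in comparisons with NP or HAMSA. With the replicate block the genes called were 1 in HAMSB against HAMS, 0 in HAMSA against HAMSB, 1 in HAMS against NP and 1 for any difference. Gadd45a was then -0.86 (adjusted p = 0.00962), Cdkn1a -0.89 (adjusted p = 0.052) and Sesn1 -0.68 (adjusted p = 0.106) in HAMSB against HAMS, and Cdkn1a was 0.74 (adjusted p = 0.0642) in HAMS against NP. Calls over all genes with the block were 163 in HAMSB against HAMS, 2 in HAMSA against HAMSB, 378 in HAMS against NP, 0 in HAMSA against NP and 5 in HAMSB against NP.

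Over all genes, the 252 calls of HAMSB against HAMS became 603 with DESeq2, 74 and 101 within the lower and upper library numbers, 402 with the covariate, 136 with the compared diets alone and 127 to 240 in omissions. With library totals the split moved from 65 higher and 187 lower to 142 and 141, in HAMS against NP from 341 and 309 to 225 and 573 and in HAMSA against NP from 91 and 121 to 84 and 260. The 0 of HAMSA against HAMS became 103 with DESeq2, 11 and 29 within numbers, 1 with the covariate and 0 to 26 in omissions. The 117 of HAMSA against HAMSB became 600 with DESeq2, 10 within the lower numbers, 0 with the covariate, 4 with the compared diets alone and 13 to 187 in omissions. The 650 of HAMS against NP became 1264 with DESeq2, 1250 and 37 within numbers, 1157 with the covariate and 235 to 703 in omissions. The 212 of HAMSA against NP became 1295 with DESeq2, 83 with limma voom, 344 with library totals, 75 with no filter, 2694 and 31 within numbers, 9 with the covariate, 387 with the compared diets alone and 0 to 589 in omissions. The 11 of HAMSB against NP became 124 with DESeq2, 21 with limma voom, 7 with the filter of 1 CPM in 4 libraries, 94 within the lower numbers, 43 with the covariate, 0 with the compared diets alone and 0 to 14 in omissions. Library totals moved the median of all genes by at most 0.0837.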
